A study of Mus musculus with 20 samples.

Results

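The 6 genes described here are the receptors for the steroid hormones oestradiol (Esr1), progesterone (Pgr), glucocorticoids (Nr3c1) and mineralocorticoids (Nr3c2), the enzyme Hsd11b1, which makes active glucocorticoid inside cells, and Fkbp5, a receptor co-chaperone that glucocorticoids induce. They were chosen by name out of 36611 annotated genes, with earlier results of these data known. Each gene's level is the sum over its transcripts in TPM, a unit of abundance corrected for transcript length and library depth. All 6 had reads in every library. A high-fat diet (HFD) lowered Hsd11b1 and Esr1 in control littermates and in knockout mice. Nr3c1, Nr3c2, Fkbp5 and Pgr did not pass the test for diet, and no member passed it for genotype.

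Steroid hormones cross the cell membrane and bind receptors that are themselves transcription factors. Without hormone these receptors sit in complexes with heat shock proteins and co-chaperones, and with hormone they bind DNA and recruit coactivators or corepressors. Fat is a target of all of these hormones, and in it HSD11B1 turns inert 11-keto glucocorticoid into the active form with NADPH that H6PD supplies. Oestrogen acting on ESR1 is known to shape the size of female fat depots, and PGR is a classical oestrogen-induced gene of the mammary epithelium, which lies within the inguinal fat pad of female mice.

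The libraries come from inguinal white adipose tissue (iWAT), a subcutaneous depot in the groin, and there is 1 from each of 20 female C57BL/6 mice aged 6 months, 5 in each of 4 groups. Ad-Tmem120a-/- mice carry a floxed Tmem120a gene that adiponectin-driven Cre deletes in adipocytes, and the controls, labelled wild type, are littermates homozygous for the floxed gene without Cre. For 15 weeks, mice of each genotype ate HFD with 58% fat or a low-fat diet (LFD) with 10.5% fat. The diets also differed in carbohydrate, mainly sucrose in HFD and mainly corn starch, in a larger amount, in LFD. Mice were fasted before dissection. Other cells of the tissue keep the gene in this model, and the stage of the oestrous cycle is not given in the sources used here.

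Library totals lay between 54605101 and 92387737 estimated counts. Tmem120a, the deleted gene, was between 57.9 and 132 TPM in control and between 21.5 and 74.0 TPM in Ad-Tmem120a-/- mice on LFD, and between 83.3 and 196 TPM against 29.5 and 89.7 TPM on HFD, so the ranges overlapped on both diets. Over both diets its log2 fold change was -1.64 ± 0.24 (SE, adjusted p = 0.00452, edgeR's quasi-likelihood test). Within a diet it was not called, at -1.67 ± 0.29 on HFD (adjusted p = 0.173) and -1.61 ± 0.34 on LFD (adjusted p = 0.929). White adipocyte markers summed to at least 20527 TPM in each library. One library, control LFD replicate 5, held 4012 TPM of skeletal muscle fibre markers, and the members' edgeR fold changes in comparisons that include it were also computed without it.

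Nr3c1 was the most abundant member. Over the 20 libraries it averaged 78.8 TPM, followed by Hsd11b1 (40.7 TPM), Esr1 (19.1 TPM), Fkbp5 (10.4 TPM), Nr3c2 (7.53 TPM) and Pgr (3.89 TPM). The glucocorticoid receptor exceeded the mineralocorticoid receptor in 20 of 20 libraries, by a ratio of 8.31 to 13.4 with a median of 10.7. Neighbours in this order overlapped: Nr3c1 was above Hsd11b1 in 18 libraries, Hsd11b1 above Esr1 in 19, Esr1 above Fkbp5 in 18, Fkbp5 above Nr3c2 in 17 and Nr3c2 above Pgr in 17.

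**Figure D1:**
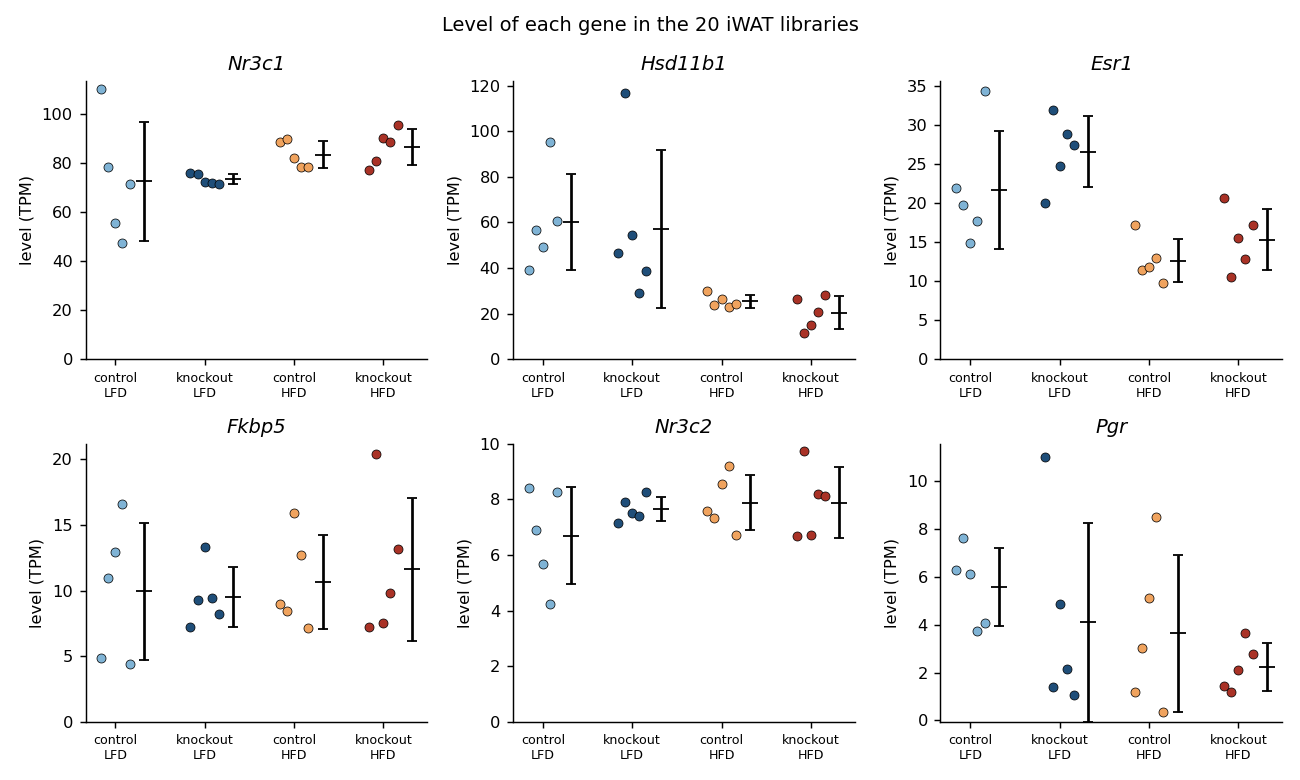
Level of each member in TPM (vertical axis) in the 5 libraries of each group (points), with mean and SD beside them. The HFD libraries of Hsd11b1 lay below the LFD libraries of the same genotype, with HFD means of 25.4 and 20.3 TPM against 60.1 and 57.1 TPM, and Nr3c1 had the highest level in most libraries.

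RefSeq promoter windows of Esr1 and Hsd11b1 are shown because both genes were called lower on HFD. The RefSeq windows run from 250 bases before to 50 bases after the annotated start (assembly GRCm38.p6). The Esr1 window shown is chr10:4611739-4612038 on the plus strand, the Hsd11b1 window chr1:193242311-193242610 on the minus strand. Capitals mark CCAAT or its reverse complement ATTGG, and GGTCA, the half-site of an oestrogen response element, or its reverse complement TGACC. Another RefSeq window of Esr1, chr10:4709908-4710207, held none of these motifs and is not shown. It lies at the 5′ end of Esr1-004, a transcript with 4.35% of the gene's TPM.
Esr1: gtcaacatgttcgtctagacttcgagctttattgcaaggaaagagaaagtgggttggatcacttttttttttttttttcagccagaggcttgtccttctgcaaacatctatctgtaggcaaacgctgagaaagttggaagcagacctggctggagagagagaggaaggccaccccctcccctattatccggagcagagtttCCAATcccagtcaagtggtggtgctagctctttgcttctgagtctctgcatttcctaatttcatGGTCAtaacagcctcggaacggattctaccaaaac
Hsd11b1: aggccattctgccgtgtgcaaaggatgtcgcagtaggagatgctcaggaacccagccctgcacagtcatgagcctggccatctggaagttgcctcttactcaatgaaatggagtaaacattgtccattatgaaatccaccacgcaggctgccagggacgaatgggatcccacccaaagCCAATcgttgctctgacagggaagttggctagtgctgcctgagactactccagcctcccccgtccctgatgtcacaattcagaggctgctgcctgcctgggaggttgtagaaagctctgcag
Each window shown held 1 CCAAT, at position -49 in Esr1 and -72 in Hsd11b1 when the start base is 0. CCAAT was found in 37.4% of the 32851 windows in all. The Esr1 window also held 1 GGTCA at position 15, a motif of 40.5% of all windows. The glucocorticoid receptor half-site AGAACA, found in 19% of windows on either strand, was in neither of them. Matched by sequence to the files' own assembly, the start of the Esr1 window coincided with the 5′ end of Esr1-001, the transcript with 75.1% of the gene's TPM. For Hsd11b1 the nearest annotated 5′ end was that of Hsd11b1-002, at -231 bases from the RefSeq start, a transcript with 35.9% of the gene's TPM. Most of the window thus lay downstream of that end. Hsd11b1-001, with 50.3% of the gene's TPM, begins far upstream, at 195090248 on mm9, and its promoter is not in the window.

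Hsd11b1 (ENSMUSG00000016194, chr1:195047824-195090248 on the minus strand of mm9, the assembly of the files) had the largest diet difference of the 6 members. In control littermates on LFD its levels were 39.1, 56.7, 49.2, 95.2 and 60.5 TPM, and on HFD they were 29.9, 23.9, 26.2, 23.0 and 24.1 TPM. In Ad-Tmem120a-/- mice the LFD levels were 46.6, 117, 54.6, 28.8 and 38.5 TPM, against 26.5, 11.4, 14.8, 20.7 and 28.1 TPM on HFD. Every HFD library was below every LFD library of its own genotype, and 9 of the 10 HFD libraries were below all 10 LFD libraries. How many of all genes separated by diet in this way was not counted, here or for the other members. An unadjusted p under 0.05 for diet (edgeR) was reached by 3166 of 15311 genes in control and 3115 of 15705 in knockout mice. HFD means were 0.423 of the LFD mean in control and 0.355 in knockout mice.

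On counts, the log2 fold change of Hsd11b1 was -1.49 ± 0.19 in control mice (SE, n = 5 against 5, adjusted p = 0.00304, edgeR) and -1.68 ± 0.32 in Ad-Tmem120a-/- mice (adjusted p = 0.0120). Over both genotypes it was -1.59 ± 0.20 (adjusted p = 1.23e-05, edgeR), rank 105 by p among 15574 genes tested. An exact permutation test of log2(TPM + 1), two-sided, gave p = 0.00794 within either genotype, the smallest that 5 mice against 5 allow. Over both genotypes it gave p = 3.15e-05, the smallest that permutation within genotypes can give.

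Esr1 (ENSMUSG00000019768, chr10:5340927-5734948, minus strand, mm9) moved in the same direction by a smaller amount. Control littermates had 21.9, 19.8, 14.8, 17.7 and 34.4 TPM on LFD and 17.2, 11.5, 11.8, 13.01 and 9.72 TPM on HFD. Ad-Tmem120a-/- mice had 19.96, 31.9, 24.8, 28.8 and 27.5 TPM on LFD and 20.6, 10.6, 15.5, 12.8 and 17.1 TPM on HFD. In each genotype 4 of 5 HFD libraries were below all LFD libraries, and 1 HFD library overlapped them. The HFD mean was 0.581 of the LFD mean in control and 0.576 in knockout mice.

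The log2 fold change of Esr1 was -0.97 ± 0.22 in control mice (adjusted p = 0.0290, edgeR) and -0.79 ± 0.18 in Ad-Tmem120a-/- mice (adjusted p = 0.0286). With both genotypes it was -0.88 ± 0.15 (adjusted p = 0.000218, edgeR), and the exact permutation test gave p = 0.0159 within either genotype and p = 0.000126 over both. Without control LFD replicate 5, which had the highest Esr1 level and the muscle markers, the value in control mice was -0.75 ± 0.17 (adjusted p = 0.0417, edgeR). In bulk tissue, fewer cells that express a gene and less of its RNA per cell cannot be told apart.

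These 2 calls among 6 members stand against a background in which diet changed many genes. The members, and the lists below, were chosen with earlier results of these data known. Their shares of calls thus describe them and are no test against all genes. In control mice 9.32% of 15311 genes tested passed at adjusted p under 0.1, and 4.9% of those tested were lower on HFD. Among Ad-Tmem120a-/- mice 9.4% of 15705 passed, and 4.85% were lower. Over both genotypes 25.2% of 15574 passed, and 12.7% were lower on HFD, so 2 of 6 is not far from the share of all genes called in that pooled comparison. These shares depended on single libraries and on the scale. Without control HFD replicate 12 the number of genes called in control mice went from 1427 to 780, and without knockout LFD replicate 6 that in knockout mice went from 1476 to 753, with 2 members called in each. On the TPM scale limma called 1791 genes higher and 348 lower in control mice, against 676 and 751 with edgeR, and 1009 and 525 in knockout mice, against 714 and 762. Over both genotypes it called 3552 higher and 1184 lower, against 1954 and 1977. All 6 members passed the filter on low values, a mean of 0.5 TPM over the libraries compared.

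**Figure D2:**
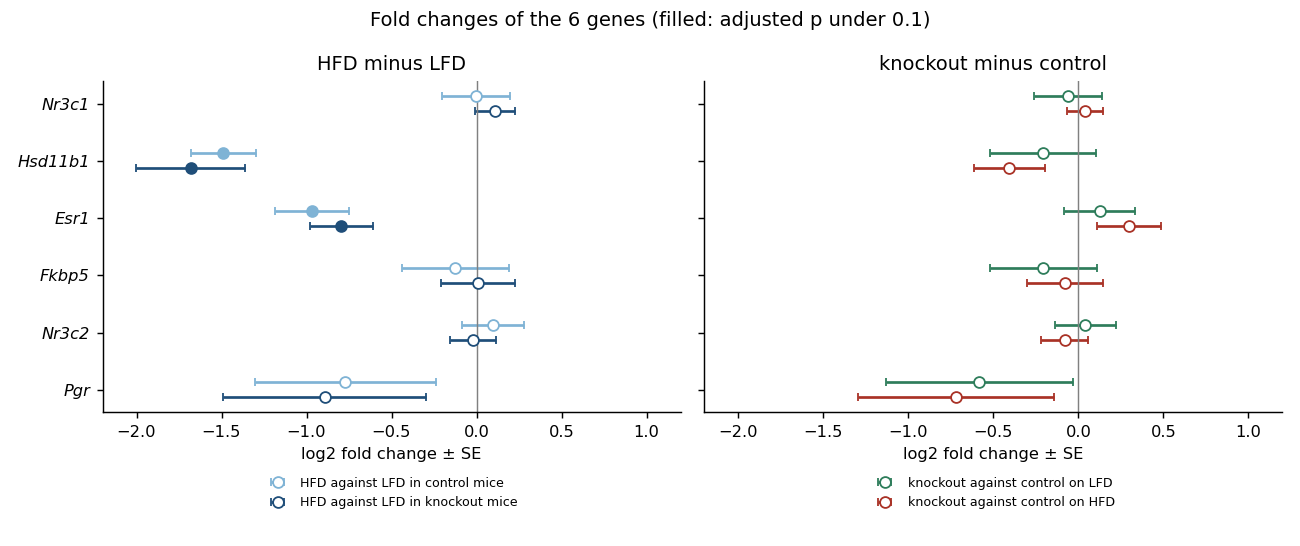
Log2 fold change with its standard error (edgeR) for each member, HFD minus LFD within each genotype on the left and knockout minus control within each diet on the right; filled points have an adjusted p under 0.1. Hsd11b1 (-1.49 and -1.68) and Esr1 (-0.97 and -0.79) are filled on the left, and no point is filled on the right.

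Pgr (ENSMUSG00000031870, chr9:8900419-8965425, plus strand, mm9) varied most between mice of one group. It was at 6.27, 7.62, 6.13, 3.75 and 4.09 TPM in control littermates on LFD and at 1.205, 3.02, 5.10, 8.48 and 0.371 TPM on HFD. In Ad-Tmem120a-/- mice it was at 11.01, 1.39, 4.86, 2.14 and 1.08 TPM on LFD and at 1.45, 1.21, 2.09, 3.65 and 2.78 TPM on HFD. The diets overlapped in both genotypes, and a single control group on HFD spanned 0.371 to 8.48 TPM. Its log2 fold change for diet over both genotypes was -0.83 ± 0.42 (adjusted p = 0.180, edgeR; exact permutation p = 0.123), a fold close to that of Esr1 with an error too wide to call. Without control HFD replicate 14, at 8.48 TPM, it was -1.06 and passed (adjusted p = 0.0846, edgeR).

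Nr3c1 (ENSMUSG00000024431, chr18:39570199-39650955, minus strand, mm9) ranged from 47.4 to 110 TPM in control littermates on LFD (median 71.1) and from 71.5 to 75.6 TPM in Ad-Tmem120a-/- mice on LFD (median 72.3). On HFD the ranges were 78.2 to 89.6 TPM (median 81.8) and 77.1 to 95.2 TPM (median 88.5). In knockout mice every HFD library was thus above every LFD library, by 0.23 on the log2(TPM + 1) scale (exact permutation p = 0.00794). On counts the diet difference was 0.11 ± 0.12 in knockout mice (adjusted p = 0.691, edgeR) and 0.06 ± 0.11 over both genotypes (adjusted p = 0.781), which was not a call. The median of all genes tested rose by 0.08 on the TPM scale in that comparison and by 0.10 over both genotypes, against -0.03 over both genotypes on counts.

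Nr3c2 (ENSMUSG00000031618, chr8:79423341-79768911, plus strand, mm9) lay between 4.25 and 9.73 TPM in all libraries, with group means of 6.70 ± 1.76 and 7.65 ± 0.44 TPM on LFD and 7.88 ± 0.996 and 7.88 ± 1.27 TPM on HFD (SD, n = 5, control then knockout). Its diet log2 fold change over both genotypes was 0.04 ± 0.11 (adjusted p = 0.844, edgeR). Fkbp5 (ENSMUSG00000024222, chr17:28536040-28654469, minus strand, mm9) had means of 9.93 ± 5.26 and 9.49 ± 2.31 TPM on LFD and 10.6 ± 3.61 and 11.6 ± 5.45 TPM on HFD, within a range of 4.38 to 20.4 TPM. For diet its log2 fold change was -0.06 ± 0.20 (adjusted p = 0.878, edgeR). Of Fkbp5's TPM, 46% came from Fkbp5-003, an RNA annotated without a coding sequence, and 39.1% from the coding Fkbp5-001, so its gene level is not a level of coding RNA alone.

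The comparison of genotypes asked whether loss of Tmem120a in adipocytes altered these genes on either diet. Neither diet gave a call among the 6 members, where 0.00657% of 15228 genes were called on HFD and 0.00636% of 15717 on LFD. On HFD the fold changes of the diet-responsive genes ran in opposite directions, -0.41 ± 0.21 for Hsd11b1 (unadjusted p = 0.0741, adjusted p = 0.999, edgeR) and 0.30 ± 0.19 for Esr1 (adjusted p = 0.999). In Hsd11b1, 3 of the 5 knockout libraries on HFD were below all 5 control libraries and the rest were among them. On LFD the values were -0.21 ± 0.31 for Hsd11b1 and 0.12 ± 0.21 for Esr1 (adjusted p = 0.940 and 0.945, edgeR). Pgr gave -0.72 ± 0.58 on HFD and -0.58 ± 0.55 on LFD, a mean that was lower in knockout mice on both diets with errors nearly as large as the differences.

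Over both diets the genotype log2 fold changes were -0.31 ± 0.19 for Hsd11b1, 0.21 ± 0.15 for Esr1, -0.65 ± 0.42 for Pgr, -0.15 ± 0.20 for Fkbp5, -0.02 ± 0.11 for Nr3c1 and -0.02 ± 0.11 for Nr3c2. The lowest adjusted p of them was 0.726 (edgeR), with 0.0385% of 15574 genes called. By exact permutation within diets, Esr1 gave the smallest p of the members (p = 0.0693). The difference between the genotype differences on the diets was -0.21 ± 0.39 for Hsd11b1, 0.16 ± 0.30 for Esr1 and -0.14 ± 0.85 for Pgr, and no member passed (adjusted p = 0.9999 for each, edgeR). None of the genes tested passed there (0% of 15574), with 560 at an unadjusted p under 0.05 and 14 called by DESeq2. With standard errors of 0.30 and 0.39, differences in the diet response of Esr1 or Hsd11b1 of the size seen were not detectable with 5 mice a group.

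Hsd11b1 has alternative promoters, and the files assign its reads to separate transcripts. Hsd11b1-001 begins upstream and Hsd11b1-002 at the downstream promoter, and together they made up most of the gene's TPM. Hsd11b1-002 stood at 10.7, 19.8, 18.4, 50.5 and 22.5 TPM in control littermates on LFD and at 13.5, 4.43, 6.00, 6.75 and 2.63 TPM on HFD. Hsd11b1-001 was at 21.1, 30.4, 27.9, 17.1 and 33.2 TPM on LFD and at 11.4, 18.9, 19.5, 15.9 and 21.5 TPM on HFD in the same mice. Both were lower on HFD on average, with the LFD and HFD ranges overlapping for each. In Ad-Tmem120a-/- mice the means went from 22.03 to 5.38 TPM for Hsd11b1-002, with overlapping ranges, and from 27.2 to 11.4 TPM for Hsd11b1-001, where every HFD library (5.12 to 15.1 TPM) was below every LFD library (21.96 to 38.4 TPM).

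The share of Hsd11b1-001 in the gene's TPM was 47.4 ± 16.5% on LFD and 70.0 ± 19.3% on HFD in control mice (SD, n = 5, exact permutation p = 0.0873), and 56.0 ± 21.6% and 56.6 ± 15.2% in knockout mice (exact permutation p = 0.960). Knockout differed from control by 8.56 percentage points on LFD (p = 0.492, exact permutation test) and by -13.3 points on HFD (p = 0.254, exact permutation test). A change in shares was thus not called. In control mice the call turned on 1 library: without HFD replicate 11, the share of Hsd11b1-001 was 30.5 points higher on HFD (exact permutation p = 0.00794) and that of Hsd11b1-002 17.5 points lower (-17.5, exact permutation p = 0.0238). The transcripts share most of their exons, so that the split is Salmon's estimate, and it put Hsd11b1-002 at 0 TPM in knockout HFD replicate 18. No transcript with at least 10% of another member's TPM was called for its share between genotypes either. The smallest exact permutation p was 0.111 (Nr3c2-002 on LFD). The largest difference, 24.5 points for Pgr-201 on HFD, had an exact permutation p of 0.230 with 5 mice a group.

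**Figure D3:**
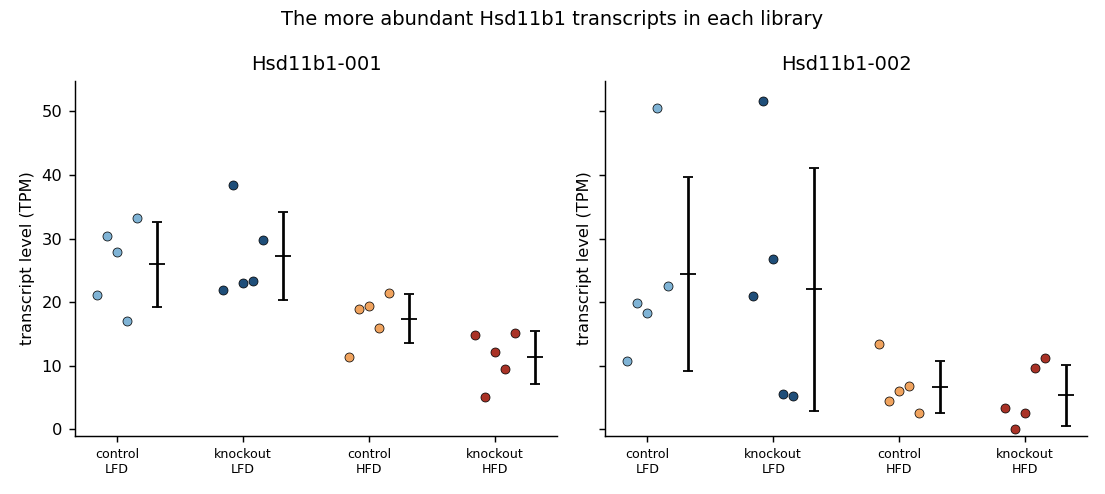
Level of Hsd11b1-001 and Hsd11b1-002 in TPM (vertical axis) in the 5 libraries of each group, with mean and SD. Both transcripts had lower means on HFD, 17.4 and 11.4 TPM for Hsd11b1-001 and 6.66 and 5.38 TPM for Hsd11b1-002 in control and knockout mice, and the diets did not overlap for Hsd11b1-001 in knockout mice.

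Libraries differed in the balance of short to long transcripts, and Hsd11b1 followed it. The balance was taken as the median log2(TPM + 1) of 1596 genes with transcripts of 904 to 1462 bases minus that of 1629 genes with transcripts of 5248 bases or more. It ranged from -0.10 to 0.78 in control and from -0.16 to 0.35 in knockout mice on LFD, and from 0.33 to 0.59 and from 0.25 to 0.63 on HFD. HFD libraries were higher by 0.23 over both genotypes (exact permutation p = 0.0344), by 0.32 in knockout mice (exact permutation p = 0.0317) and by 0.13 in control mice (exact permutation p = 0.452). This diet difference was larger by 0.20 in knockout than in control mice (exact permutation p = 0.335). Knockout minus control over both diets was -0.10 (exact permutation p = 0.315). With group means removed, Hsd11b1, whose main coding transcript has 1393 bases, correlated with this balance over the 20 mice (r = 0.80, permutation p = 2.00e-05; rho = 0.82, p = 0.00034; adjusted p = 0.00012 and 0.00204 over 6 relations). Without the 2 mice farthest from the median, r was 0.78.

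Within groups, libraries rich in short transcripts thus had more Hsd11b1, whereas over both genotypes HFD libraries had a higher balance and less Hsd11b1. Esr1 did not follow the balance (r = -0.04, permutation p = 0.911; rho = -0.02, p = 0.931). Nr3c1 and Nr3c2 went the opposite way (r = -0.67 and -0.65, permutation p = 0.0371 and 0.0204, adjusted p = 0.0742 and 0.0611; rho = -0.27 and -0.51, p = 0.321 and 0.0426), and these relations rested on 2 mice, without which r was -0.19 and -0.32. For Pgr r was -0.10 and rho -0.01 (permutation p = 0.646 and 0.956), for Fkbp5 r was 0.44 and rho 0.30 (permutation p = 0.150 and 0.274).

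With the balance as a covariate in the edgeR fit, an alternative added after the data were seen, the diet log2 fold change over both genotypes was -1.91 ± 0.15 for Hsd11b1 (adjusted p = 4.82e-08) and -0.82 ± 0.17 for Esr1 (adjusted p = 0.00102). In that fit Nr3c1 (0.28 ± 0.08, adjusted p = 0.0139) and Nr3c2 (0.28 ± 0.08, adjusted p = 0.00952) were called higher on HFD, which makes 4 of 6 members where 37.7% of 15574 genes were called. Within genotypes the diet value of Hsd11b1 was then -1.58 ± 0.11 in control mice (adjusted p = 3.75e-05, 23% of genes called) and -2.58 ± 0.20 in knockout mice (adjusted p = 0.00019, 27% of genes called). The genotype difference on HFD against that on LFD was -0.56 ± 0.25 for Hsd11b1 in that fit (unadjusted p = 0.0347, adjusted p = 0.561, edgeR). The balance is itself computed from these libraries. In knockout mice it differed by diet, from -0.16 to 0.35 on LFD and from 0.25 to 0.63 on HFD (exact permutation p = 0.0317). Diet and balance are thus partly confounded in that fit. In knockout mice the SE of the diet value of Esr1 was 0.26 with the balance and 0.18 without it. For Hsd11b1 it was 0.20 with the balance and 0.32 without it. By length alone, 31 of 1740 genes with transcripts of 904 to 1462 bases fell more on HFD than Hsd11b1, and 122 of 1740 genes of 5248 bases or more fell more than Esr1, whose length class had a median of -0.16.

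**Figure D4:**
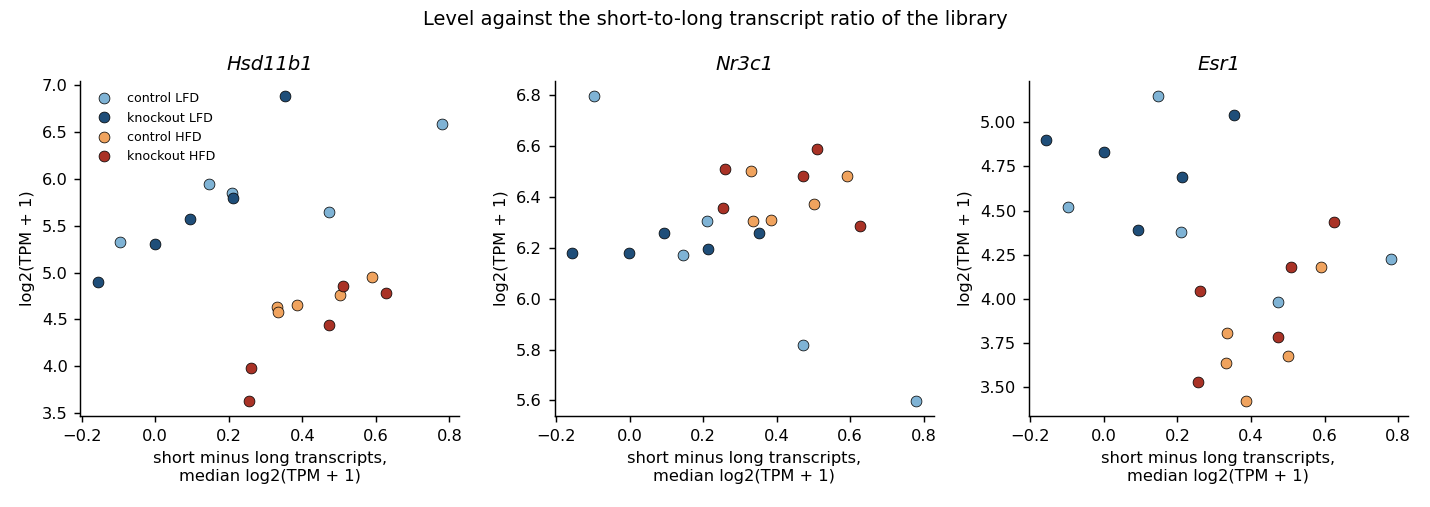
Log2(TPM + 1) of Hsd11b1, Nr3c1 and Esr1 (vertical axes) against the short-to-long transcript balance of each library (horizontal axis, log2), 1 point a library coloured by group. Hsd11b1 rises along the axis within each diet (r = 0.80 within groups). Its HFD points cover balances of 0.25 to 0.63. Of the LFD points, only control replicate 3 (0.47) and knockout replicate 7 (0.35) lie in that range, both above the HFD points.

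Markers of the cells of the tissue moved with diet too. The 15 white adipocyte markers summed to 20527 to 30375 TPM on LFD and to 26075 to 42640 TPM on HFD (0.40 higher on the log2 scale, exact permutation p = 0.00142), 4 of them called higher and 1 lower. The 16 fat progenitor and fibroblast markers summed to 3260 to 4738 TPM on LFD and 3558 to 5639 TPM on HFD (0.32 higher, exact permutation p = 0.00265; 4 called higher, 2 lower), and the 12 endothelial markers to 199 to 309 TPM and 269 to 453 TPM (0.44 higher, exact permutation p = 0.000724; 4 higher, 1 lower). Hsd11b1 and Esr1 fell while these 3 sums rose in TPM, a scale on which the median of all genes tested rose by 0.10. On counts the median log2 fold changes of the 3 lists were smaller, at 0.12, 0.10 and 0.27 (edgeR). In control mice alone they were 0.11, -0.11 and 0.23, with 0 fibroblast markers called higher and 2 lower. The 16 lymphocyte markers went the way of the members in their fold changes, with a median of -0.43 and 1 of 16 above 0, with 0 called and a difference of -0.06 in their log2 sum (exact permutation p = 0.891). Of 20 epithelial markers of mammary gland and skin, 5 were lower and 0 higher among the 19 tested. Of all genes tested, 25.2% were called and 12.7% were lower. The epithelial sums were 417 to 876 TPM on LFD and 346 to 822 TPM on HFD (exact permutation p = 0.603). Skeletal muscle fibre markers ranged from 13.1 to 4012 TPM in control and 18.1 to 1278 TPM in knockout mice on LFD, and from 15.9 to 67.6 TPM and 55.3 to 1705 TPM on HFD. None of the lists had a marker at 0 in all libraries, and the part of cell make-up in the diet differences was not tested beyond these values.

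Over mice of the same group, members were set against each marker sum, with group means removed, in 42 relations. Esr1 was higher in mice with higher white adipocyte markers (r = 0.67, permutation p = 0.00334, adjusted p = 0.0561; rho = 0.67, p = 0.00389, adjusted p = 0.0981), and r was 0.70 without the 2 mice farthest from the median. Hsd11b1 was higher in mice with higher macrophage markers (r = 0.72, permutation p = 0.00401, adjusted p = 0.0561; rho = 0.68, p = 0.00701, adjusted p = 0.0981; 0.61 without 2 mice). Nr3c1 was higher with endothelial markers (r = 0.61, permutation p = 0.0066, adjusted p = 0.0572; rho = 0.70, p = 0.00673, adjusted p = 0.0981; 0.55 without 2 mice) and with fibroblast markers (r = 0.45, permutation p = 0.00681, adjusted p = 0.0572; rho = 0.53, p = 0.0200, adjusted p = 0.149; 0.52 without 2 mice). With lymphocyte markers Nr3c1 was lower (r = -0.74, permutation p = 0.00334, adjusted p = 0.0561; rho = -0.64, p = 0.0212, adjusted p = 0.149; -0.57 without 2 mice). With group means left in, r was -0.315 for Esr1 with adipocyte markers, 0.176 for Hsd11b1 with macrophage markers, and 0.552 and -0.572 for Nr3c1 with fibroblast and lymphocyte markers, none with an adjusted p under 0.1. The sign was thus kept by all but the first, and for Nr3c1 with endothelial markers r was 0.705 (adjusted p = 0.0202, permutation). The other 37 relations had an adjusted p of at least 0.1. Both measures of a pair come from the same library and share its composition, the short-to-long balance included.

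The genes whose level followed each member most closely over the 20 libraries, group means removed, were taken from 13976 genes of at least 1 TPM. Those most like Hsd11b1 were Use1 (r = 0.94), Atp6v1f (0.94), Grcc10 (0.94), Rps15, a ribosomal protein gene (0.94), and Gltscr2 (0.93), with transcripts of 500 to 1555 bases. Like Esr1 were Zfp704 (0.84), Itga11 (0.81), Klf10, a transcription factor induced by oestrogen and TGF-beta (0.80), Pygb (0.79) and 9530026P05Rik (0.79). Pgr was followed by Syn2 (0.92), Cyp3a57 (0.86), Slc5a5, the iodide transporter (0.86), Nrxn3 (0.84) and Zbtb8a (0.82). Nr3c1 had Slc2a13 (0.94), Sspn (0.92), Daam1 (0.90), Lrrc4c (0.90) and Cdkl2 (0.90), with transcripts of 3492 to 6050 bases. Nr3c2 had Cand1 (0.89), Ino80d (0.87), Arhgef5 (0.86), Arhgef6 (0.86) and Vcpip1 (0.85), with transcripts of 1614 to 13529 bases. Whether the short-to-long balance had a part in these lists was not tested. For Fkbp5 the list was Mcm5 and Mcm2, subunits of the replicative helicase (0.84 and 0.83), P2ry14 (0.81), Fgr (0.81) and Pole2 (0.80).

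Other receptors of the hormones, membrane receptors and the orphan relatives of Esr1 that bind no steroid hormone were taken as 1 list. Of 11 tested, 5 rose and 1 fell on HFD over both genotypes, where 25.2% of all genes were called. The membrane progestin receptor genes Paqr7 and Paqr9 rose (log2 fold changes of 1.12 ± 0.20 and 1.31 ± 0.17), the latter from means of 10.8 and 10.4 TPM on LFD to 30.9 and 24.99 TPM on HFD in control and knockout mice. Gper1, the membrane oestrogen receptor, rose by 1.07 ± 0.27 at a mean of only 0.753 TPM, Pgrmc2 by 0.23 ± 0.08 and the orphan receptor gene Esrrg by 0.52 ± 0.21. Esr2 and Paqr5 were below 0.5 TPM on average. The list's median of 0.00 was close to that of all genes (-0.03).

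Among enzymes that make, convert or bind steroids, 14 of the 33 matched genes passed the filter and 19 were below 0.5 TPM. The latter include Hsd11b2, which inactivates glucocorticoid, and the genes of adrenal and gonadal steroid synthesis Cyp11a1, Cyp17a1 and Cyp21a1. Cyp19a1, which makes oestrogen, was among the 8 genes with at most 3 estimated counts in every library. Hsd17b4 rose on HFD (0.56 ± 0.08, adjusted p = 4.35e-05, edgeR) and Hsd17b7 rose (0.86 ± 0.18), whereas Hsd17b11 fell by 0.29 (SE 0.09). Hsd17b4, a peroxisomal beta-oxidation enzyme, and Hsd17b12, an enzyme of fatty acid elongation, were the most abundant at 126 and 116 TPM. H6pd, the partner of HSD11B1, averaged 20.5 TPM and did not pass (0.24 ± 0.16, adjusted p = 0.344, edgeR), unlike Hsd11b1.

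Chaperones and coregulators are the partners of the receptors. Of 15 chaperone genes 3 rose and 0 fell on HFD, a share below the 25.2% of all genes called: Hspa8 (0.34 ± 0.09), the most abundant at 886 TPM, St13 (0.35 ± 0.12) and Stip1 (0.27 ± 0.08). Hsp90aa1, second at 459 TPM, had 0.32 ± 0.16 (adjusted p = 0.193, edgeR). Of 14 coregulators 6 fell and 0 rose, where 12.7% of all genes were called lower. The acetyltransferase genes Crebbp and Ep300 fell by 1.04 and 0.76 (SE 0.11 and 0.12), and Nrip1, Ncoa3 and Med1 fell by 0.47, 0.19 and 0.18. In TPM the mean of Med1 was 17.8 and 19.9 on LFD and 19.1 and 19.4 on HFD, so its fall of 0.18 is not seen on that scale. The median of the coregulators was -0.19, against -0.03 for all genes tested.

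Of 22 glucocorticoid-induced genes 4 rose and 1 fell on HFD, a share near the 25.2% of all genes called, with a list median of 0.01. Tsc22d3 (GILZ) rose by 0.53 ± 0.15, Dusp1 by 0.67 ± 0.18, Ddit4 by 1.19 ± 0.29 and Cdkn1a by 1.45 ± 0.30, while Per1 fell by 0.44 (SE 0.16). Sult1a1 and Pik3r1, the most abundant of the list at 166 and 116 TPM, did not pass (0.01 and 0.06). Fkbp5 itself, the classical member of this group, was at -0.06.

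Of 14 oestrogen- and progesterone-responsive genes tested 4 fell and 1 rose, where 25.2% of all genes were called and 12.7% were lower. The list median was -0.40, against -0.03 for all genes tested. Tnfsf11 (RANKL), a progesterone target in mammary epithelium, fell by 3.16 (SE 0.71), from means of 3.37 and 4.98 TPM on LFD to 0.468 and 0.650 TPM on HFD. Greb1, an ESR1 target, fell by 1.18 (SE 0.48) on counts at a mean of only 0.552 TPM, and its TPM went from 0.706 to 0.424 in control but from 0.466 to 0.613 in knockout mice. Igfbp5 fell by 0.50 (SE 0.18) and Cxcl12 by 0.26 (SE 0.09), whereas Stc2 rose by 0.58 ± 0.23. The most abundant, Prlr (100.3 TPM) and Xbp1 (77.4 TPM), had -0.39 and -0.23 and did not pass. The epithelial markers above, with a median of -0.40 over the 19 tested, moved beside this list, and their part in it was not tested.

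Of 9 aldosterone-responsive genes 1 rose and 0 fell, a share below the 25.2% of all genes called, with a list median of -0.18.

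**Figure D5:**
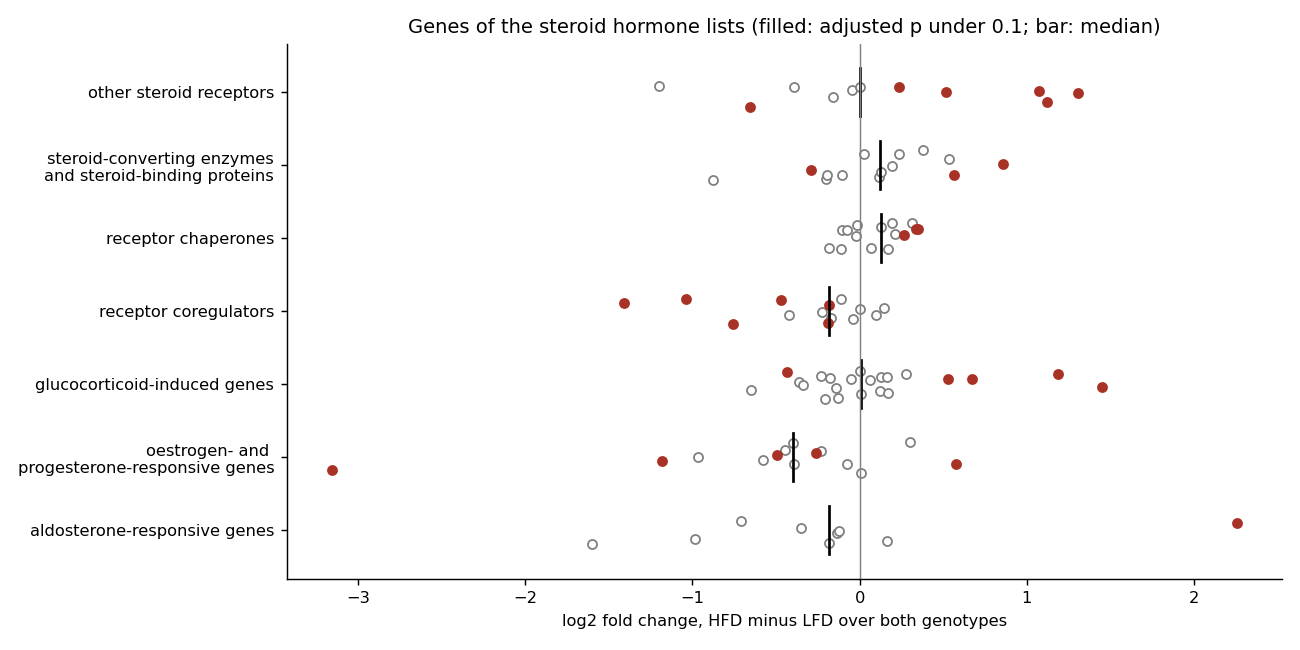
Log2 fold change on HFD over both genotypes (edgeR, horizontal axis) of each tested gene in 7 lists of the steroid hormone pathway; filled points have an adjusted p under 0.1, and the bar is the list median. Called coregulators all lie below 0 (6 of 14) and called chaperones all above 0 (3 of 15), and the other lists have calls on both sides except the aldosterone list, which has 1 call.

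None of the tested genes of the 7 lists was called for genotype on HFD, on LFD or over both diets, nor for the difference between diets. Over both diets, Cited1, a coactivator of ESR1 in the mammary gland, was among those with the smallest p of their lists (1.41 ± 0.48, adjusted p = 0.516, edgeR). Among the glucocorticoid-induced genes, 3 of 22 had a log2 fold change above 0 in knockout mice over both diets, with a list median of -0.23 against -0.01 for all genes tested, led by Map3k6 (-0.29 ± 0.12), Dusp1 (-0.40 ± 0.18) and Ddit4 (-0.63 ± 0.29), each with an adjusted p of at least 0.613 (edgeR). The list's median was -0.14 on HFD and -0.27 on LFD. Over both diets 2 of 15 white adipocyte markers (median -0.24) and 0 of 12 endothelial markers (median -0.17) were above 0 as well, and the summed muscle markers were higher in knockout mice by 2.45 on the log2 scale (exact permutation p = 0.0407). The part of these cells in the list's values was not tested. Of the enzymes, Hsd17b4 (-0.20 ± 0.08), Akr1c14 (-0.67 ± 0.29) and H6pd (-0.33 ± 0.16) had the smallest p.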

How the data were processed

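RNA of iWAT from 20 mice was made into ribosome-depleted stranded libraries and sequenced as paired reads. The authors ran STAR (2.5.3) on mm9 and Salmon (0.13.1) on Ensembl NCBIM37 transcripts, and deposited estimated counts and TPM for 96533 transcripts per library. Whether STAR's alignments were used for these values is not given in the sources used here. Of the transcripts, 94334 matched the GENCODE annotation of that assembly and were summed to 36611 genes. Between 0.377 and 0.581% of a library's counts lay on unmatched transcripts and were left out.

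Gene sums of estimated counts were rounded and tested with edgeR 4.0.16 (quasi-likelihood, TMM, R 4.3.3) among genes averaging 0.5 TPM or more, with Benjamini-Hochberg adjustment and a threshold of 0.1. Fits within a diet or genotype held only the groups compared, and the rest held all 4. Members were also tested on log2(TPM + 1) by exact permutation, in 42 tests whose p-values are unadjusted. The labels give separate mice, and p-values measure the spread between them. Libraries of a group correlated at r = 0.874 to 0.967.

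Named were the 6 members, Tmem120a, pathway genes called in a comparison or else the 3 with the smallest p of a list, the 2 most abundant of each list, and the 5 genes most like each member. The members and lists were chosen with earlier results of these data known. Alternatives were DESeq2 1.42.0, limma 3.58.1 on log2(TPM + 1), RLE size factors, no filter, transcript length offsets, a pseudocount of 0.1 and leaving out each library. Chosen after seeing the data were edgeR's newer quasi-likelihood method, the short-to-long balance as a covariate and the diet comparison of transcript shares. The scripts were tested on simulated data. Promoter sequences are from RefSeq, which held 6 windows for 5 of the 6 members. Some genes that the naming rule selects are not reported here.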

Additional observations from a re-analysis of the deposited data

Results flagged for a closer look

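Among 52 sets of 5 libraries (the members and the marker sums in each group), 2 had a library far from the rest by Dixon's test, where chance gives about 1 in 20. Both concern skeletal muscle fibre markers and neither a member. Control LFD replicate 5 held 4012 TPM of them against 276 TPM in the next library of its group, and control HFD replicate 12 held 67.6 TPM against 19.7 TPM. Without the former, Hsd11b1 differed between diets by -1.50 and Esr1 by -0.75 in control mice (log2, edgeR, adjusted p = 0.00785 and 0.0417).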

How the results depend on the processing

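The number of members called was the same in 48 of 49 alternatives. The exception was the short-to-long balance as a covariate, chosen after seeing the data, with 4 members called for diet over both genotypes (Hsd11b1 and Esr1 lower, Nr3c1 and Nr3c2 higher). Leaving out single libraries gave 2 to 3 members for that comparison, 2 for diet within each genotype and 0 for genotype and for the difference between diets. Hsd11b1 then ranged from -1.60 to -1.28 in control and from -1.84 to -1.36 in knockout mice, and Esr1 from -1.08 to -0.75 and from -0.94 to -0.70, with adjusted p up to 0.0759 (edgeR).

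Reversed fold changes were all ones that had not been called, and the cause was not tested. With limma, the difference between diets became -0.071 for Esr1 and 0.41 for Pgr, the genotype value over both diets 0.064 for Nr3c1, 0.098 for Nr3c2 and 0.071 for Fkbp5, and the diet value of Fkbp5 0.19. With length offsets, Nr3c2 had 0.048 for genotype and -0.0036 for diet, and Fkbp5 0.029 for diet. With the balance as a covariate, Hsd11b1 had 0.099 for genotype on LFD and Fkbp5 0.030 over both diets. Without group means removed, the correlation of Esr1 with white adipocyte markers was -0.315 and that of Hsd11b1 with macrophage markers 0.176.

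Leaving out single libraries turned the sign in these ranges. The difference between diets was -0.068 to 0.27 for Esr1, -0.42 to 0.10 for Hsd11b1 and -0.42 to 0.67 for Pgr. For genotype, Hsd11b1 on LFD was -0.54 to 0.0043, Nr3c1 -0.065 to 0.088 and Nr3c2 -0.079 to 0.020. Diet values were -0.14 to 0.059 for Fkbp5, -0.0045 to 0.16 for Nr3c1 and -0.025 to 0.086 for Nr3c2. Shares moved from -5.81 to 6.83 points for Hsd11b1-001 (diet, knockout) and, for Hsd11b1-002, from -7.75 to 3.92 (genotype, HFD) and -7.49 to 1.39 (genotype, LFD).

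For knockout against control on HFD, the number of genes called moved from 1 to 100 with DESeq2, 34 with the newer quasi-likelihood method, 26 without a filter, 58 without knockout HFD replicate 21 and 10 without control HFD replicate 12, none of them a member. Single libraries also moved the diet counts: in control mice 1427 became 810, 873 or 868 without LFD replicate 2, 3 or 5 and 780 or 827 without HFD replicate 12 or 13, and in knockout mice 1476 became 753 without LFD replicate 6 and 963 without HFD replicate 21. DESeq2 gave 2205 and 2247. No paired analysis was possible because the replicate numbers are not shared between groups. The lowest count of a member in a library was 89, of Pgr.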
